A study of Mus musculus with 6 samples.

Results

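Polycomb repressive complexes 1 and 2 (PRC1 and PRC2) were followed through 32 subunit genes, whose rows were taken from the deposited RNA-seq table by gene name. All 32 names were found, each on 1 row, among 22969 gene names in the table. All RNA came from a single mouse embryonic stem cell (ESC) line, E14Tg2a, between passages 37 and 40, each sample from a pair of culture plates. In 3 samples the ESCs had been kept pluripotent with leukemia inhibitory factor (LIF). The other 3 were NCs (Neuronal Cells, as the study names them), that is, the same line after 48 h in 1 μM retinoic acid (RA) without LIF. LIF withdrawal and RA addition went together, so their parts in a difference cannot be told apart. The table holds 1 value per gene and condition, pooled by the authors over the 3 samples, as FPKM (fragments per kilobase of transcript, corrected for sequencing depth). No spread between samples can therefore be given, no test between ESCs and NCs was made, and every value below is the authors' pooled FPKM. A gene was called higher or lower in NCs when its FPKM ratio was at least 2-fold.

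PRC2 places the repressive H3K27me3 mark on histone H3 through its catalytic subunit, Ezh1 or Ezh2, which works only together with Eed and Suz12. PRC1 ubiquitinates histone H2A through Ring1 or Rnf2, each paired with 1 of the Pcgf proteins. Canonical PRC1 adds a Cbx protein, whose chromodomain reads the PRC2 mark, and a Phc protein, which can polymerize, while variant PRC1 carries Rybp or Yaf2 in their place. In ESCs these complexes are known to hold developmental regulators, the Hox genes among them, at low transcription.

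The upstream promoter sequences of 4 subunit genes are shown because these genes carry the differences in the PRC2 core and in the PRC1 ring finger pair, and because their windows touch no annotated exon. Suz12 and Ezh1 were lower in NCs, whereas Bmi1 and Ring1 were higher. Each is the 250 bases before a RefSeq start on GRCm38.p6, written 5′ to 3′ on the strand of the gene, with every CG dinucleotide in capitals. Suz12 lies at chr11:79992856-79993105 on the plus strand and Bmi1 at chr2:18676768-18677017 on the plus strand. Ezh1 lies at chr11:101226464-101226713 and Ring1 at chr17:34024681-34024930, both on the minus strand.
Suz12: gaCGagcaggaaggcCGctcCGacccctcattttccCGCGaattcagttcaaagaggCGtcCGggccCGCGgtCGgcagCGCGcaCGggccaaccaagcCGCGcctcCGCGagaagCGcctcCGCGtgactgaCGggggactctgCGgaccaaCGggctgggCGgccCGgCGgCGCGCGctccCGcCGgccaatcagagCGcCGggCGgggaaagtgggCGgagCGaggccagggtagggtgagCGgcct
Ezh1: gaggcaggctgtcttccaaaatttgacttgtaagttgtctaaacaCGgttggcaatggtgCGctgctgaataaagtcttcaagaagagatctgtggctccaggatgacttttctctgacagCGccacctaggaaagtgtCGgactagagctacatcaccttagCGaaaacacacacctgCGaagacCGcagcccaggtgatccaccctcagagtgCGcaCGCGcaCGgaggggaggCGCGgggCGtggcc
Bmi1: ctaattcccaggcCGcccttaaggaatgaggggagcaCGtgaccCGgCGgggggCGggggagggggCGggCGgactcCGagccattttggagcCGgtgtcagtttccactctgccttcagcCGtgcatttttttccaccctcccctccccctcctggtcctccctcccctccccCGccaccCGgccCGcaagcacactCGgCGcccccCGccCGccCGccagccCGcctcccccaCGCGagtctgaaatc
Ring1: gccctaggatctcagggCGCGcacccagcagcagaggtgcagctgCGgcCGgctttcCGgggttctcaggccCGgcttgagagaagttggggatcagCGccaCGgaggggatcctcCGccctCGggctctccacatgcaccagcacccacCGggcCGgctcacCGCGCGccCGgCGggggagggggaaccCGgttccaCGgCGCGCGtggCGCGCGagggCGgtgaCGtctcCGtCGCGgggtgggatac
The CG dinucleotides numbered 37 in Suz12, 14 in Ezh1, 21 in Bmi1 and 30 in Ring1. RefSeq gave 38 such windows for 28 of the 32 genes, and their median was 19 CG dinucleotides. The median was 16 over the 11989 windows of genes with a mean FPKM of at least 1, and 6 over all 32841 windows. Windows with unknown bases, and those of 1 chromosome on which none of the 32 genes lies, were left out of these sets. Letters of 5 motifs were searched on both strands, counting a window once per motif and allowing motifs to overlap. The GC box letters GGGCGG were in 25 of the 38 windows (65.8%) and in 59.2% of windows of genes with a mean FPKM of at least 1. The E-box letters CACGTG were in 8 windows (21.1%), among them that of Bmi1, against 8.50% of windows of genes with a mean FPKM of at least 1 and 6.02% of all windows. The nuclear receptor half-site letters AGGTCA were in 4 windows (10.5%, against 10.8% in genes with a mean FPKM of at least 1), the octamer ATGCAAAT in 1 (2.63% against 1.23%) and the ETS core CCGGAAG in 1 (2.63% against 13.2%). These letter matches describe the windows and show no binding.

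The FPKM as deposited sum to 770592 in ESCs and to 628679 in NCs. The 100 genes with the highest values held 43.0% of that sum in ESCs and 38.3% in NCs. Bringing both conditions to the same sum would add 0.29 to every log2 ratio, whereas centring on the median would add 0.04, so calls that depend on this choice are marked below. Over the 12782 genes with a mean FPKM of at least 1, the median log2 ratio of NC over ESC was -0.04. Fragment numbers per sample are not in the table. The size of 1 fragment was roughly estimated from 1-transcript genes, as the most common low FPKM times transcript length, sought within a set narrow range. On 1 kilobase of transcript, 1 fragment came to 0.0138 FPKM (ESCs) and 0.0135 FPKM (NCs), assuming fragments of 200 bases, a choice made after seeing the data. A smaller FPKM per fragment would give more fragments than stated below, and a larger FPKM per fragment would give fewer. The longest coding transcript of each Polycomb gene was used, and a shorter transcript would also give fewer fragments and relatively wider counting intervals. All 8 pluripotency markers were at least 2-fold lower in NCs (summed FPKM 5756 in ESCs and 862 in NCs), and all 6 RA response markers were higher (10.1 and 759). Of 7 neural markers, Sox1 and Pax6 were higher, but Tubb3 and Nefl, which mark neurons, were lower, and Dcx, below the filter, was listed at 0.0140 FPKM in ESCs and 0.334 in NCs. Of 7 endoderm markers 5 were higher (summed FPKM 16.9 and 39.3), of 6 mesoderm markers 1 was higher (2.70 and 5.12), and of 6 fibroblast markers 4 were higher and 1 was lower (20.6 and 44.8). Their part in the values of the Polycomb genes was not tested, and in bulk RNA fewer cells of a type and less RNA per cell cannot be told apart.

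Of the 32 Polycomb genes, 6 were at least 2-fold lower in NCs, 6 were at least 2-fold higher and 20 were within 2-fold. All 32 had a mean FPKM of at least 1, Cbx8 (0.360 FPKM in ESCs and 3.77 in NCs) only through its NC value. Among all 12782 such genes, 9.94% were lower and 11.1% were higher by the same rule, whereas 18.8% of the Polycomb genes were lower and 18.8% were higher. The 6 lower genes were Phc1, Ezh1, Jarid2, Suz12, L3mbtl2 and Phf19. The 6 higher genes were Cbx8, Bmi1, Phc2, Cbx2, Yaf2 and Ring1. Every higher gene encodes a PRC1 subunit, and 4 of the 6 lower genes belong to PRC2. With both conditions at the same FPKM sum, 2 of the 32 Polycomb genes were lower (Phc1 and Ezh1) and 7 were higher, Bcorl1 being the added gene. At that sum 6.77% of all genes were lower and 16.4% were higher, so the lower Polycomb genes no longer exceeded the share of all genes. Over all genes, 52.8% of the calls were in the higher direction with FPKM as deposited and 70.8% at the same sum.

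**Figure D1:**
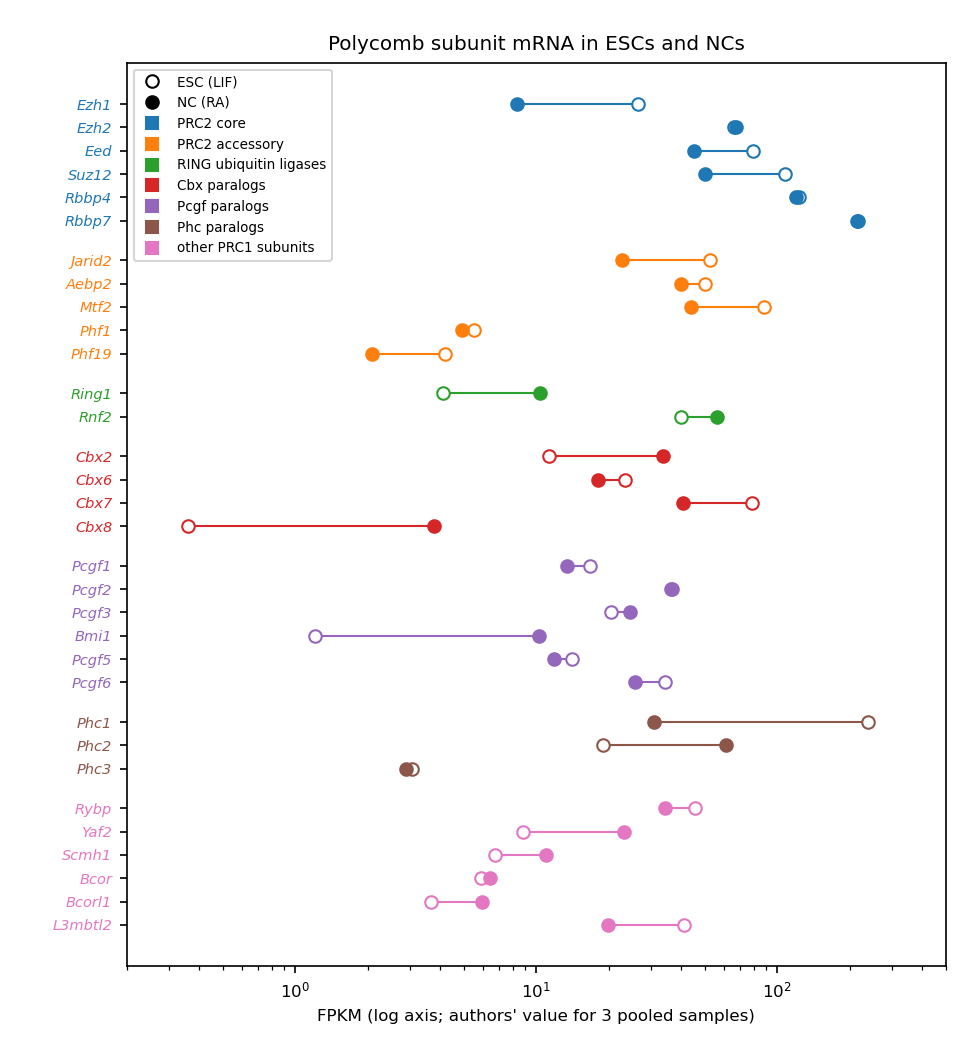
FPKM of the 32 Polycomb genes in ESCs (open circles) and NCs (filled circles) on a log axis, colored by subunit group, with 1 pooled value per condition and hence no error bars. Cbx8 and Bmi1 have the longest lines to the right, and Phc1 the longest to the left, from 238 to 30.8 FPKM.

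Over all 32 genes the levels were spread more widely in ESCs than in NCs, which held among the PRC1 genes but not among the PRC2 genes. They ran from 0.360 FPKM (Cbx8) to 238 FPKM (Phc1) in ESCs, a 661-fold range, and from 2.08 FPKM (Phf19) to 214 FPKM (Rbbp7) in NCs, a 103-fold range. The ESC range rests on Cbx8, which had a mean FPKM of at least 1 only through its NC value. The next lowest ESC value was 1.21 FPKM (Bmi1). The same spread over all genes was not computed. The SD of log2 FPKM over the 32 genes was 2.17 in ESCs and 1.55 in NCs, and their median was 24.9 and 23.9 FPKM. Among the 21 PRC1 genes the SD was 2.12 in ESCs and 1.23 in NCs, and the genes with the lowest ESC values, Cbx8 and Bmi1, were both higher in NCs. Among the 11 PRC2 genes it was 1.80 in ESCs and 2.00 in NCs. After Phc1, the order in ESCs was Rbbp7 (216 FPKM), Rbbp4 (124), Suz12 (107), Mtf2 (87.7), Eed (79.2), Cbx7 (78.7) and Ezh2 (66.2). In NCs it was Rbbp7, Rbbp4 (119), Ezh2 (67.4), Phc2 (61.5), Rnf2 (56.3) and Suz12 (50.1), with Phc1 at rank 14. Whether neighbors in these orders differ beyond the spread between samples cannot be told from pooled values.

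In the PRC2 core, Ezh1 and Suz12 were lower in NCs and the other 4 genes were within 2-fold, with a median log2 ratio of -0.43 over the 6 genes. By the same 2-fold rule 9.94% of all genes were lower. Ezh2, the methyltransferase that predominates in dividing cells, had nearly the same FPKM in ESCs (66.2) and NCs (67.4), a log2 ratio of 0.03. Its paralog Ezh1 (chromosome 11, 101191115 to 101226463), a weaker methyltransferase best known from non-dividing tissue, stood at 26.4 FPKM in ESCs against 8.35 in NCs. This was a 3.17-fold lower value and the largest ratio among the 11 PRC2 genes. Of the FPKM of both enzymes, Ezh1 made up 28.6% in ESCs and 11.03% in NCs, a share that does not depend on how the conditions were scaled.

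Suz12 (chromosome 11, 79993106 to 80034123), which holds the core together, had 107 FPKM in ESCs and 50.1 in NCs, 2.14-fold lower. Eed, the subunit that binds the H3K27me3 mark, had 79.2 and 45.3 FPKM, 1.75-fold lower and within the limit. Measured against Ezh2 within each condition, the Suz12 level was 1.62 times that of Ezh2 in ESCs and 0.743 times in NCs, and Eed went from 1.196 times to 0.672 times. Both scaffold genes thus stood above Ezh2 in ESCs and below it in NCs. Of the summed FPKM of Ezh1, Ezh2, Eed and Suz12, a set chosen after the values were seen, Suz12 held the largest share in ESCs (38.5%) and Ezh2 in NCs (39.4%). At the same FPKM sum Suz12 was within 2-fold (log2 ratio -0.81), while its ratio to Ezh2 is the same under any scaling.

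The histone-binding WD40 proteins Rbbp4 and Rbbp7, which PRC2 shares with deacetylase and chromatin assembly complexes, were within 2-fold. Rbbp7 had 216 FPKM in ESCs and 214 in NCs, and Rbbp4 had 124 and 119. The share of Rbbp4 in their sum was 36.4% in ESCs and 35.8% in NCs. Of the 50-base words of the Rbbp4 coding transcripts, 32.7% also occur in transcripts of other genes, so part of its fragments could have been assigned elsewhere.

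All 5 PRC2 accessory genes had the lower FPKM in NCs as deposited, as had 6702 of all 12782 genes with a mean FPKM of at least 1. Phf1 turned to a log2 ratio of 0.12 at the same FPKM sum. The median log2 ratio of the 5 genes was -0.997, and 2 passed the 2-fold limit, by which 9.94% of all genes were lower. Jarid2 (chromosome 13, 44729474 to 44921643), a catalytically inactive Jumonji protein that helps to bring PRC2 to its targets, had 52.4 FPKM in ESCs and 22.6 in NCs, 2.32-fold lower. Aebp2, the zinc finger partner of Jarid2 in the same subcomplex, had 50.2 and 39.8 FPKM, a 1.26-fold difference within the limit. Among the Polycomb-like proteins, which join PRC2 in a separate subcomplex and bind CG-rich DNA, Mtf2 (chromosome 5, 108065674 to 108109004) was the most abundant. It had 87.7 FPKM in ESCs and 43.9 in NCs, 1.996-fold lower and just within the limit. Phf19 (chromosome 2, 34893757 to 34914026) had 4.17 and 2.08 FPKM, 2.01-fold lower and just past it.

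Phf1, the other Polycomb-like gene, had 5.53 FPKM in ESCs and 4.90 in NCs. Exons of Cuta on the opposite strand cover 39.3% of the Phf1 exon bases, and Cuta had 82.8 and 79.0 FPKM. Mtf2 held 90.04% of the summed FPKM of the 3 Polycomb-like genes in ESCs and 86.3% in NCs, and that sum was 97.4 and 50.9 FPKM. The Phf19 call was lost when log2 ratios were centred on their median, with a pseudocount of 0.1 or 1 FPKM, or at the same FPKM sum. At the same sum Jarid2 was also within 2-fold, with a log2 ratio of -0.92.

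Over the 11 PRC2 genes the median log2 ratio was -0.81, against -0.04 for all genes with a mean FPKM of at least 1. Of these 11 genes 10 had the lower FPKM in NCs as deposited, as had 6702 of all 12782 genes. Past 2-fold, 4 of the 11 (36.4%) were lower, against 9.94% of all genes, and none was higher. At the same FPKM sum 7 of the 11 had the lower value, since Rbbp4, Rbbp7 and Phf1 turned to log2 ratios between 0.12 and 0.28. Rbbp7 also turned when centred on the median (0.02), as did both Rbbp genes at equal upper quartiles (0.00 and 0.04). The 21 PRC1 genes had a median log2 ratio of 0.12, with 6 higher (28.6%), 2 lower (9.52%) and 13 within 2-fold. Over all genes 11.1% were higher and 9.94% were lower. The median size of the log2 ratio, without its sign, was 0.81 for PRC2, 0.70 for PRC1 and 0.42 for all genes.

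**Figure D2:**
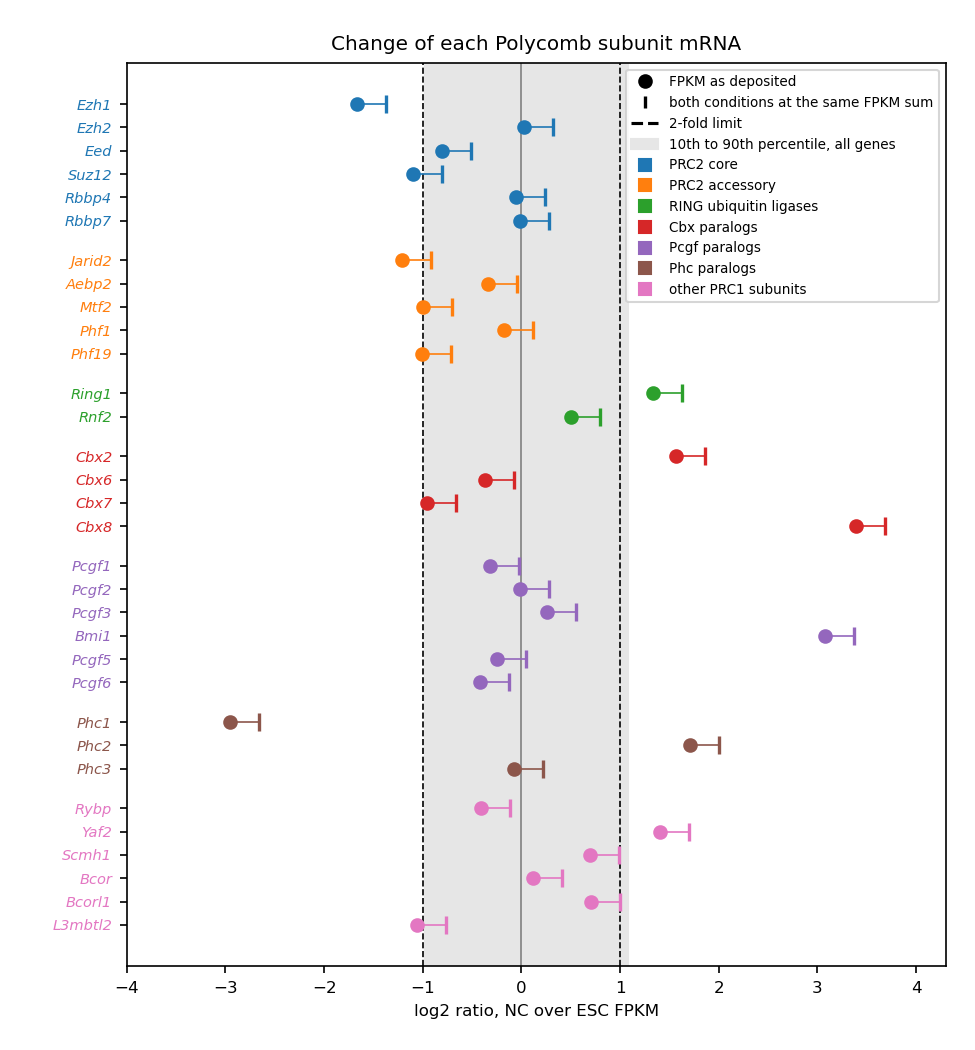
Log2 ratio of NC over ESC FPKM for each Polycomb gene with FPKM as deposited (circles) and with both conditions at the same FPKM sum (bars, 0.29 to the right). Dashed lines mark 2-fold and the gray band the 10th to 90th percentile of all genes (-0.98 to 1.08). With FPKM as deposited the PRC2 genes lie left of 0 except Ezh2 (at the same sum Ezh2, Rbbp4, Rbbp7 and Phf1 lie right of it), and the points right of the band are all PRC1 genes.

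Both RING ubiquitin ligase genes had the higher FPKM in NCs, as had 6080 of all 12782 genes with a mean FPKM of at least 1. Only Ring1 passed the 2-fold limit, by which 11.1% of all genes were higher. Ring1 (chromosome 17, 34020792 to 34024680) had 4.09 FPKM in ESCs and 10.3 in NCs, 2.53-fold higher. Rnf2, which encodes the Ring1b protein that does most of the H2A ubiquitination in ESCs, had 39.8 and 56.3 FPKM, 1.42-fold higher and within the limit. Rnf2 remained the more abundant of the pair, with 90.7% of their summed FPKM in ESCs and 84.5% in NCs.

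The Cbx genes encode the subunits by which canonical PRC1 reads the PRC2 mark, and their makeup differed between ESCs and NCs. Cbx7 (chromosome 15, 79915807 to 79971119), known as the main Cbx protein of pluripotent ESCs, had 78.7 FPKM in ESCs and 40.4 in NCs, 1.95-fold lower and just within the limit. Cbx2 (chromosome 11, 119022962 to 119031270), a Cbx protein able to compact chromatin, had 11.3 and 33.5 FPKM, 2.97-fold higher. Cbx8 (chromosome 11, 119036305 to 119040969) had 0.360 FPKM in ESCs and 3.77 in NCs, 10.5-fold higher and the largest ratio among all 32 genes. Cbx6, another canonical Cbx paralog, had 23.3 and 18.1 FPKM, a 1.29-fold difference within the limit.

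As shares of the summed FPKM of these 4 genes, Cbx7 went from 69.3% in ESCs to 42.2% in NCs and Cbx2 from 9.92% to 34.9%. Cbx6 kept a similar share, 20.5% and 18.9%, and Cbx8 had 0.317% and 3.94%. The level of Cbx7 was 6.98 times that of Cbx2 in ESCs and 1.21 times in NCs, so Cbx7 stayed above Cbx2 in both. The sum itself was 114 FPKM in ESCs and 95.8 in NCs. The ESC value of Cbx8 is the lowest of all 32 genes and corresponds to about 88 fragments on the estimate above. The exact Poisson interval (95%) of such a number is 0.289 to 0.444 FPKM, against 3.53 to 4.02 FPKM for the 944 fragments in NCs, and covers counting error only.

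**Figure D3:**
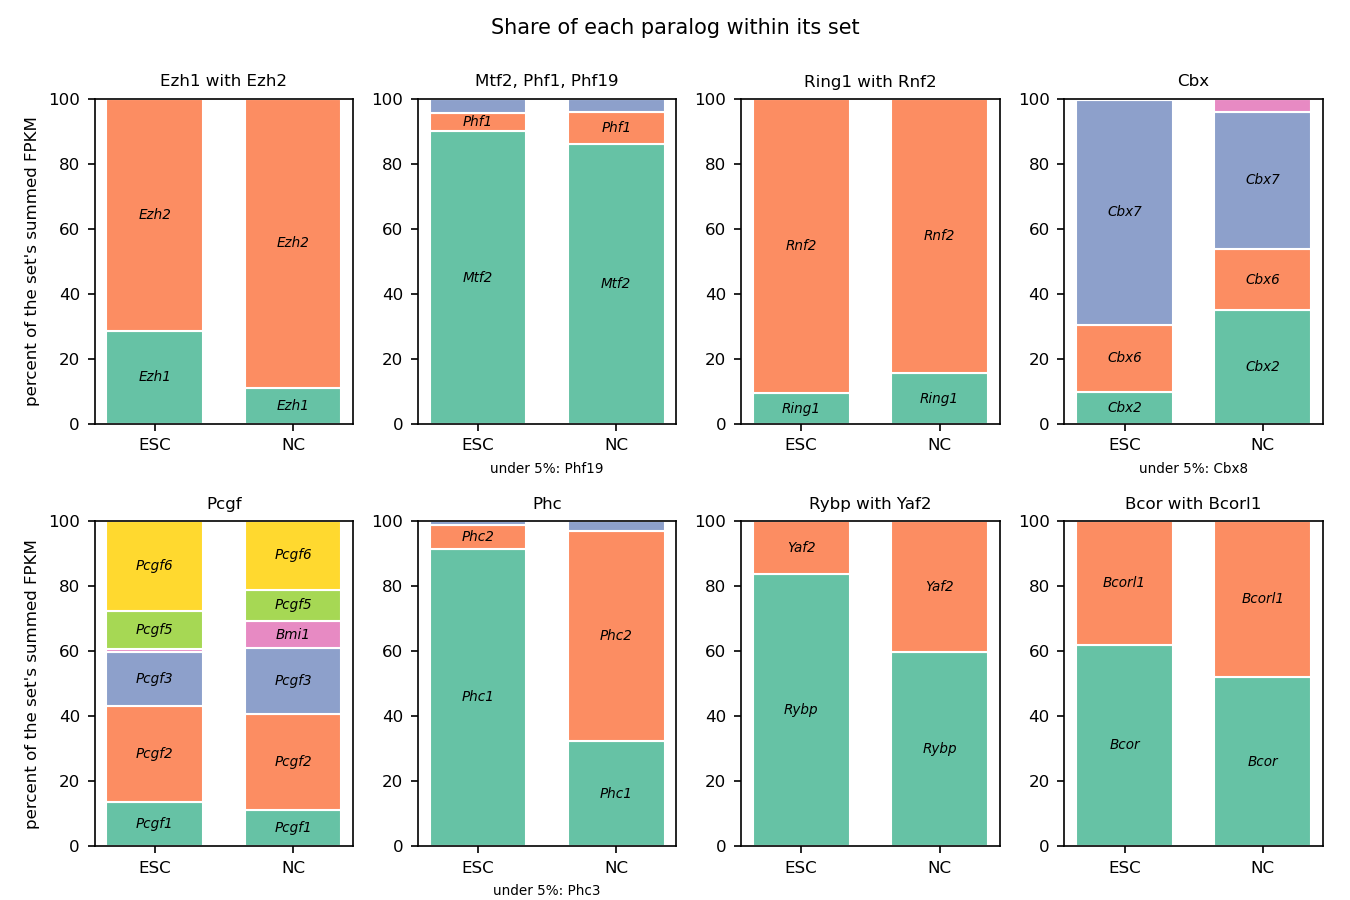
Share of each paralog in the summed FPKM of its set (percent, bars from 0 to 100) in ESCs and NCs, from 1 pooled value per condition. The Phc panel changes most, from 91.6% Phc1 in ESCs to 64.6% Phc2 in NCs, followed by the Cbx panel, in which Cbx2 goes from 9.92% to 34.9%.

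The Pcgf proteins define the different PRC1 assemblies. Of all genes with a mean FPKM of at least 1, 79.0% were within 2-fold, and so were 5 of the 6 Pcgf genes (83.3%). The exception was Bmi1 (Pcgf4; chromosome 2, 18677018 to 18686629), a canonical PRC1 subunit known for self-renewal of neural and blood stem cells, with 1.21 FPKM in ESCs and 10.2 in NCs. This was an 8.44-fold higher value. About 299 fragments stood behind the ESC value, with an exact Poisson interval (95%, counting error only) of 1.08 to 1.36 FPKM. Pcgf2 (Mel18), its closest paralog and the other canonical Pcgf, had 36.7 FPKM in ESCs and 36.3 in NCs. Pcgf2 was thus 30.3 times as abundant as Bmi1 in ESCs and 3.55 times in NCs.

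Of the variant PRC1 Pcgf genes, Pcgf6, whose complex includes Mga and L3mbtl2, had 34.3 FPKM in ESCs and 25.7 in NCs. Pcgf1, the partner of Kdm2b and Bcor, had 16.7 and 13.4 FPKM. Pcgf3 and Pcgf5, which form closely related assemblies, had 20.4 and 24.5 FPKM and 14.1 and 11.9 FPKM. These 4 genes differed by 1.19-fold to 1.34-fold. The 6 genes summed to 124 FPKM in ESCs and 122 in NCs, and the Bmi1 share of this sum was 0.981% and 8.39%. Of the 50-base words of the Bmi1 coding transcripts 16.9% occur in another gene, and 16.8% of all its words occur in the processed pseudogene Gm5946. For Pcgf1, 19.7% of the words occur in the processed pseudogene Gm8930.

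The Phc genes, for the polyhomeotic proteins that link PRC1 particles through their SAM domain, showed both the largest lower value and a higher one. Phc1 (chromosome 6, 122317731 to 122340561) had 238 FPKM in ESCs and 30.8 in NCs, 7.74-fold lower. Phc2 (chromosome 4, 128654702 to 128752881) had 18.9 and 61.5 FPKM, 3.26-fold higher. Phc3, the third paralog, had 3.04 and 2.90 FPKM. Phc1 was 12.6 times as abundant as Phc2 in ESCs and 0.5002 times in NCs, a 25.2-fold difference between the ratios, so their order was the opposite in NCs. Phc1 held 91.6% of the Phc sum in ESCs and 32.3% in NCs, and Phc2 held 7.25% and 64.6%. The Phc2 value did not make up for the lower Phc1 value, since the sum of all 3 genes was 260.0 FPKM in ESCs and 95.2 in NCs. No 50-base word of these 3 genes occurs in another gene.

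Rybp and Yaf2 compete for the place that Cbx proteins take in canonical PRC1. Yaf2 (chromosome 15, 93284278 to 93336935) had 8.79 FPKM in ESCs and 23.2 in NCs, 2.64-fold higher. Rybp had 45.4 and 34.2 FPKM, a 1.33-fold difference within the limit. The Yaf2 share of their sum was 16.2% in ESCs and 40.4% in NCs, while the sum was 54.2 and 57.5 FPKM. Rybp remained the more abundant, at 5.17 times the Yaf2 level in ESCs and 1.48 times in NCs.

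Among the other PRC1 subunits, L3mbtl2 (chromosome 15, 81663889 to 81688315), an MBT domain protein of the Pcgf6 complex, had 41.1 FPKM in ESCs and 19.8 in NCs, 2.08-fold lower. Exons of Chadl on the opposite strand cover 17.2% of its exon bases, and Chadl had 2.15 and 2.104 FPKM. The L3mbtl2 call was lost at the same FPKM sum and when the upper quartiles were made equal. Bcor, the corepressor that binds Pcgf1, had 5.92 and 6.43 FPKM, and its X-linked paralog Bcorl1 had 3.64 and 5.94 FPKM, 1.63-fold higher. Scmh1, a SAM domain protein that binds Phc proteins, had 6.77 and 10.96 FPKM, 1.62-fold higher. Neither passed the limit with FPKM as deposited, and Bcorl1 was at the limit (log2 ratio 1.0005) at the same sum.

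**Figure D4:**
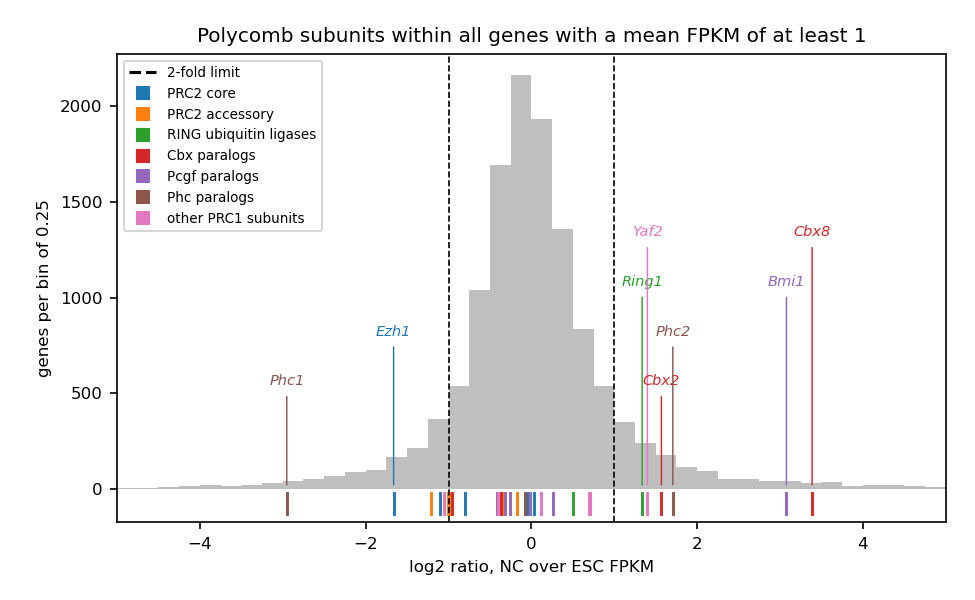
Histogram of the log2 ratio of NC over ESC FPKM for the 12782 genes with a mean FPKM of at least 1 (genes per bin of 0.25, drawn from -5 to 5), with the 32 Polycomb genes as colored ticks below and 8 of them named. The dashed lines mark 2-fold, beyond which lie 9.94% of all genes on the left and 11.1% on the right.

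Placed among all genes with a mean FPKM of at least 1, the log2 ratio of Cbx8 was at percentile 98.1, but Cbx8 passed this filter only through its NC value. The log2 ratio of Bmi1 was at percentile 97.8 and that of Phc2 at percentile 94.8. Phc1 was at percentile 1.49 and Ezh1 at percentile 4.54. By level, Phc1 stood at percentile 97.01 of all genes in ESCs and 76.6 in NCs, and Bmi1 at percentile 6.42 and 46.3. Of the 32 Polycomb genes, 22 had at least 10 FPKM in ESCs and 25 had it in NCs. The median of all genes with a mean FPKM of at least 1 was 11.5 FPKM in ESCs and 11.6 in NCs, so most of those genes reached 10 FPKM too.

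Outside the 32 genes, known partners and opponents of Polycomb were compared by lists. Of 27 listed partner names 26 were in the table and 24 had a mean FPKM of at least 1, of which 3 (12.5%) were at least 2-fold higher in NCs, near the 11.1% of all genes, none was lower, and the median log2 ratio was 0.29. Among the higher genes, AU022751, the gene for an inhibitor of PRC2, had 2.14 and 5.31 FPKM, 2.48-fold higher. Another was Sfmbt1, an MBT domain gene named after its values were seen, with 2.85 and 5.88 FPKM.

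Of 12 genes for H2A deubiquitinases and the PR-DUB complex, which removes the PRC1 mark, 11 had a mean FPKM of at least 1. Mbd5, which encodes a PR-DUB partner, was higher (1.10 FPKM in ESCs and 3.21 in NCs) and the other 10 were within 2-fold, with a median log2 ratio of -0.10 for the list. The higher share of 9.09% was below the 11.1% of all genes. Of 18 names for H3K27 demethylases and Trithorax proteins, which oppose Polycomb, 14 were in the table, some under older symbols such as Mll1. Setd1b, a histone H3 lysine 4 methyltransferase gene, was higher (2.03 and 4.65 FPKM) and the other 13 were within 2-fold, with a median log2 ratio of -0.05. Here too the higher share, 7.14%, was below that of all genes.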

How the data were processed

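RNA-seq of 3 ESC and 3 NC samples was deposited as 1 table of 23235 rows. Per the submitters' processing notes and methods, reads were mapped to mm10 by TopHat2 (2.0.8) running Bowtie2 (2.1.0), transcripts were assembled by Cufflinks (2.0.2) and merged, and Cuffdiff compared ESCs with NCs. The deposited FPKM are pooled to 1 per gene and condition by the authors, and the NC column, headed FPK, was read as FPKM. The Cuffdiff version, its normalization and whether strand was used in counting are not given in the sources used here. The deposited log2 fold change, the test statistic (a score), the p-value and the q-value hold the authors' own comparison and were not used.

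Groups came from the sample titles. Of rows sharing a name, the row with the highest mean FPKM was kept. Log2 ratios were computed without a pseudocount, with a 2-fold limit and a mean FPKM of at least 1, and no test was possible. All 32 subunit genes were named. Of other lists, the 2 largest differences on log2(FPKM + 1) per direction among genes past the limit were named, except that a result within this rule is not reported here. The subunit genes and lists were chosen with earlier results of these data known. Positions, exon overlaps and shared 50-base words came from GENCODE M21 (GRCm38, the assembly of mm10), and upstream windows from RefSeq. The code that makes the calls was tested on simulated data. Scripts ran in Python 3.11.15 with pandas 2.3.3, scipy 1.17.1 and numpy 2.4.6, and plots were drawn by matplotlib 3.10.9. Alternatives were other fold limits (1.5 and 4), pseudocounts (0.1 and 1), filters (none and 5 FPKM), scalings and summed rows.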

Additional observations from a re-analysis of the deposited data

How the results depend on the processing

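The values are pooled, so the spread between samples is unknown and all limits below concern the processing only. Leaving out samples was not run for the same reason. No paired analysis was possible because the table holds no value for a single sample, although the labels number the samples alike in ESCs and NCs.

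No Polycomb gene called higher or lower turned to the opposite direction under another pseudocount, scaling or row choice. Summing rows of 1 name changed no call. Centring and pseudocounts of 0.1 or 1 FPKM each changed the call of Phf19, so that 1 PRC2 accessory gene was lower in place of 2. Equal upper quartiles, a scaling chosen after seeing the data, changed the calls of Phf19 and L3mbtl2, which left 1 lower PRC2 accessory gene and 0 lower other PRC1 subunits. Equal FPKM sums changed 5 calls. There, 2 members in place of 6 were lower. They included 1 in the PRC2 core, 0 PRC2 accessory genes and 0 other PRC1 subunits, and 2 other PRC1 subunits were higher. Among the partner (24), deubiquitinase (11) and Trithorax (14) genes past the filter, 8 in place of 5 were higher. Over all genes the higher share was 16.4% in place of 11.1%, and the lower share 6.77% in place of 9.94%.

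With a 4-fold limit 2 of the 32 members were higher (Cbx8 and Bmi1) and 1 was lower (Phc1), where 4.20% and 3.33% of all genes were. This limit left 0 lower genes in the PRC2 core, the PRC2 accessory genes and the other PRC1 subunits, 0 higher RING, Phc and other PRC1 genes, 1 higher Cbx gene and 1 higher partner gene. With a 1.5-fold limit 8 of the 32 members were higher and 9 lower, where 19.3% and 18.8% of all genes were. Of these members, 1 Cbx gene was lower and 3 other PRC1 subunits were higher. Of the 24, 11 and 14 genes of the partner, deubiquitinase and Trithorax lists past the filter, 10 were higher and 5 lower. A mean FPKM of at least 5 removed Cbx8, Phf19, Phc3 and Bcorl1. This filter left 1 higher Cbx gene, with a Cbx median log2 ratio of -0.37, and 1 lower PRC2 accessory gene. It left 0 higher genes of the partner, deubiquitinase and Trithorax lists, where 6.83% of all genes were higher. A pseudocount of 1 left 3 genes of these lists higher, where 7.91% of all genes were.

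Of the known Polycomb targets, 15 were higher and 1 lower. With no filter 23 were higher and 2 lower (median log2 ratio 2.26), with a mean FPKM of at least 5 it was 5 and 0 (median 4.16), with a 1.5-fold limit 2 were lower, and a pseudocount of 1 gave a median of 1.68. Over all genes, 1419 were higher and 1270 lower. These counts were 2471 and 2399 with a 1.5-fold limit, 537 and 426 with a 4-fold limit, 3853 and 2877 with no filter, and 634 and 734 with a mean FPKM of at least 5. On the rough fragment estimate, the counting intervals of Phf19 (3.92 to 4.43 FPKM in ESCs and 1.91 to 2.26 in NCs), L3mbtl2 (40.3 to 41.9 and 19.2 to 20.3), Mtf2 (86.6 to 88.8 and 43.2 to 44.7) and Cbx7 (77.6 to 79.9 and 39.6 to 41.3) allow ratios on both sides of 2-fold.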

Other observations

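Genes that textbooks name as Polycomb targets in ESCs, mostly developmental transcription factors, were taken as a list of 36, all in the table. Their ESC values ran from 0 to 7.80 FPKM. Of the 36 genes, 21 had a mean FPKM of at least 1, many of them only through their NC value, so their count is given as a description. Of these, 15 were at least 2-fold higher in NCs and 1 was lower, where 11.1% and 9.94% of all genes were. The homeobox genes Meis1 (0.805 FPKM in ESCs and 47.4 in NCs) and Meis2 (0.649 and 50.7 FPKM) had the largest differences among these on the log2(FPKM + 1) scale. Fgf5, an FGF ligand of the epiblast, was the lower gene, with 3.89 and 0.561 FPKM. The list was chosen with earlier results of these data known, and no relation between these genes and the subunit values was tested.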
